A study of Mus musculus with 568 samples.

Results

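The 7 genes described here act in the formation and control of meiotic DNA double-strand breaks: Spo11, Mei1, Mei4, Hormad1, Hormad2, Trip13 and Prdm9. They were chosen by name and not by a measured value, out of 16335 genes in the bulk RNA-seq table and 15718 genes in the single-cell table, and all 7 were present in both. The bulk data are 16 libraries from XRep cells, a female embryonic stem cell (ESC) line of a 129S1/SvImJ by CAST/EiJ cross, with a Tsix truncation on the 129S1/SvImJ X chromosome, GFP on that X, tdTomato on the CAST/EiJ X, rtTA in Rosa26 and doxycycline-driven Prdm14, Blimp1 and Tfap2c. The 4 groups of 4 libraries are ESCs, epiblast-like cells (EpiLCs, after 2 steps of 48 h in bFGF and activin A), and day 5 primordial germ cell-like cells (PGCLCs, in 1.5 µg/ml doxycycline) sorted as SSEA1+ and CD61+ and then as XGFP+ or XGFP-. ESCs and EpiLCs were not sorted. XGFP- cells have lost GFP from the 129S1/SvImJ X, so the 2 PGCLC groups differ in the state of that X. The single cells were sorted after 6 days in reconstituted ovaries (rOvaries), in which PGCLCs were mixed with 75000 gonadal somatic cells of E13.5. XGFP- PGCLCs gave the XGFPhigh, XGFPintermediate and XGFPlow cells, and XGFP+ PGCLCs gave the XGFP+ constitutive cells. Single ESCs, in another sequencing lane, and empty wells were also sequenced. All of these cells carry the 3 transgenes, and the whole system is 1 parental line.

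In meiotic prophase the genome is cut on purpose. SPO11, a topoisomerase-like enzyme, makes the cuts, and MEI1 and MEI4 belong to the accessory machinery without which it does not work. HORMAD1 and HORMAD2 coat the axes of chromosomes that have not yet paired, where HORMAD1 helps to gather the break machinery, and the ATPase TRIP13 strips them off once homologues are joined. TRIP13 also works in ordinary dividing cells, where it remodels the spindle checkpoint protein MAD2. PRDM9, a histone H3 methyltransferase with a zinc finger array, marks the hotspots where the cuts fall.

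All 7 genes lie on autosomes (GRCm38, GENCODE annotation), so none is on the X chromosome whose state separates the sorted groups. Spo11 (ENSMUSG00000005883) is on the plus strand at chr2:172977700-172993576, Hormad1 (ENSMUSG00000028109) on the plus strand at chr3:95559677-95587671 and Mei4 (ENSMUSG00000043289) on the plus strand at chr9:81863670-82206007. Hormad2 (ENSMUSG00000020419) is on the minus strand at chr11:4345814-4441105, Trip13 (ENSMUSG00000021569) on the minus strand at chr13:73911347-73937784, Mei1 (ENSMUSG00000068117) on the plus strand at chr15:82069996-82126814 and Prdm9 (ENSMUSG00000051977) on the minus strand at chr17:15543079-15564354. No exon of another annotated gene overlapped an exon of any of them.

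The 250 bases before the RefSeq transcription start (GRCm38.p6) were available for 6 of the 7 genes, all but Spo11. They are shown for the 2 HORMA domain genes, because one differed most between the PGCLC groups and the other did not, and for Prdm9, because it shares letters with Hormad1. Each is written 5′ to 3′ on the strand of its gene and ends at the base before the start site. Capitals mark GCGGGAA or its reverse complement TTCCCGC, a core of E2F6-type sites, and CACGTG, an E-box core, both searched on both strands and both chosen after the sequences had been seen.
Hormad1, chr3:95559427-95559676, plus strand: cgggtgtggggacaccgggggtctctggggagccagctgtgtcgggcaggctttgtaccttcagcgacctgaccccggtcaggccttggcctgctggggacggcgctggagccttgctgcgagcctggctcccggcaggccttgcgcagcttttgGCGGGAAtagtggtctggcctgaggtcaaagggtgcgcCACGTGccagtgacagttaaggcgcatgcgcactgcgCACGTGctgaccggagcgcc
Hormad2, chr11:4441083-4441332, minus strand: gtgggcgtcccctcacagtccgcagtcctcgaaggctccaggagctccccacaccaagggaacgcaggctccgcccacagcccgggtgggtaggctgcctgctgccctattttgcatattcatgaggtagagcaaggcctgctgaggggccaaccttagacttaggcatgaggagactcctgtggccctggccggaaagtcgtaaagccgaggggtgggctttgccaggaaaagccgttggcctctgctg
Prdm9, chr17:15564355-15564604, minus strand: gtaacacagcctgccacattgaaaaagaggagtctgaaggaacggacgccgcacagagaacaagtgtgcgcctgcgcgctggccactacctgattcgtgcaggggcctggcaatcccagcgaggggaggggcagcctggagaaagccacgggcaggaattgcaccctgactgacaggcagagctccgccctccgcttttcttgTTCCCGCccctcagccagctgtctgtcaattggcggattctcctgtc
The Hormad1 window held GCGGGAA beginning 95 bases before the start and CACGTG beginning 57 and 20 bases before it. The Prdm9 window, the second of 2 listed start sites, held TTCCCGC beginning 47 bases before the start, and neither the other Prdm9 window nor the windows of Hormad2, Mei1, Mei4 and Trip13 held either motif. Among all 32841 RefSeq windows of this length, 3.82% held the first motif and 6.02% the second. The Hormad1 window had 19 CpG dinucleotides, Hormad2 10 and Prdm9 13, against a median of 6 over all windows. A match is a description of the letters and not of a bound site.

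The bulk libraries held between 29778299 and 46533858 reads on genes. The deposited values are counts divided by size factors, and all of them returned whole reads within a tolerance of 0.01. The labels number 4 libraries per group without naming a culture or clone, while the study describes different clones with technical replicates of each. The p-values measure the spread between these libraries, which is then technical in part, and may be too small. Marker genes matched the labels: all 6 naive ESC markers fell and all 6 EpiLC markers rose from ESCs to EpiLCs, and all 7 early germ cell markers, 3 of which are the transgenes, rose from EpiLCs to both PGCLC groups. Of 542 sorted wells, 486 passed filters of at least 10000 reads, at least 4000 genes and at most 5% mitochondrial reads. Median depth was 354149 reads in the XGFP+ constitutive cells, 636623 to 645474 in the other 3 rOvary populations and 1103780 in ESCs. Well index names that recur in 2 sequencing lanes belong to different wells, and 0 well pairs had identical counts.

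Before any germ cell was induced, several of these genes were already transcribed. Per kilobase of exon, the scale on which genes can be compared, the mean normalised count in ESCs was 879 for Hormad1, 853 for Trip13 and 231.2 for Hormad2, against a median of 138.9 over 16097 genes. Mei4 at 49.8, Prdm9 at 10.8 and Mei1 at 3.12 were below that median, and Spo11 at 0.206 was the lowest of the 7. In EpiLCs the same scale gave 890 for Trip13, 678 for Hormad1, 208.5 for Hormad2, 44.3 for Mei4, 15.1 for Prdm9, 4.85 for Mei1 and 2.54 for Spo11. Axis and remodelling genes were thus above the median gene from the start, while the catalytic subunit was close to absent. In XGFP- PGCLCs this order had altered, with Trip13 at 580, Hormad2 at 211.8, Mei4 at 48.1, Spo11 at 28.4, Hormad1 at 19.4, Prdm9 at 8.78 and Mei1 at 0.578 per kilobase.

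**Figure D1:**
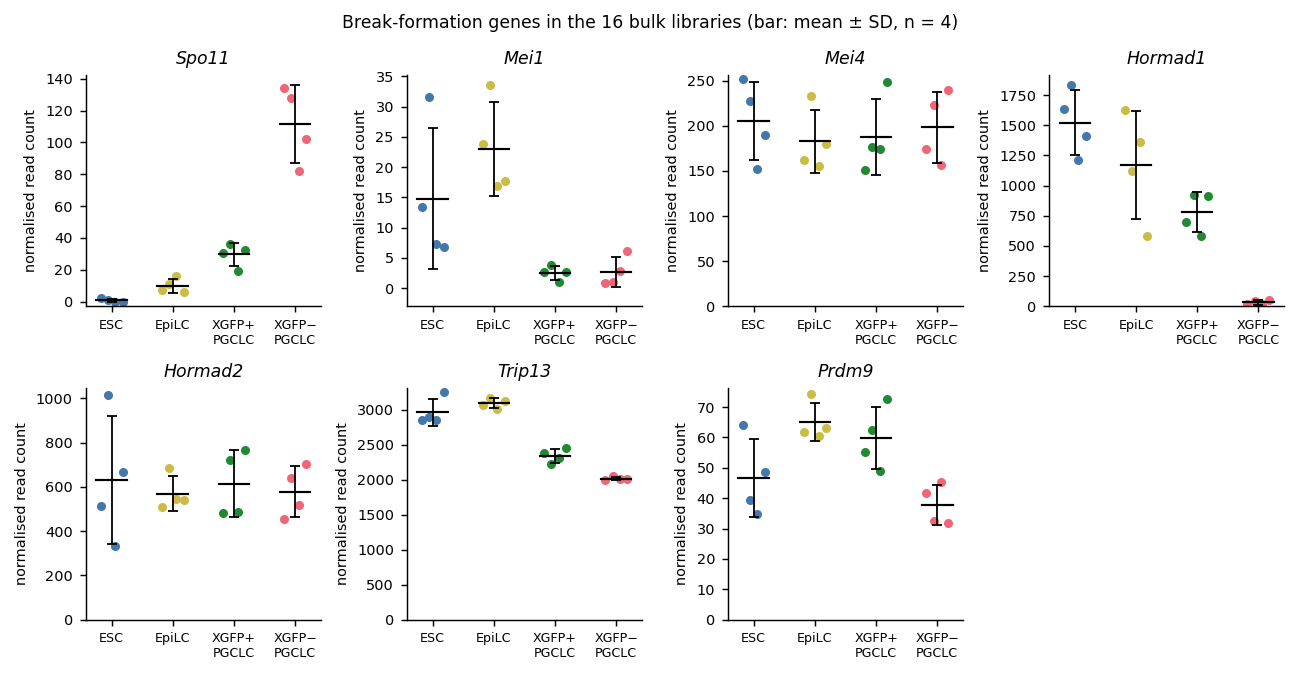
Normalised read count of each gene in the 16 bulk libraries, with 1 point per library and a bar for the mean ± SD of 4 libraries. The axis is linear from 0, or from just below 0 for Spo11 and Mei1. Spo11 has its highest points in XGFP- PGCLCs (81.8 to 134.3), Hormad1 falls from 583 to 924 in XGFP+ PGCLCs to 16.4 to 55.7 in XGFP- PGCLCs, and the points of Hormad2 and Mei4 overlap in all 4 groups.

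Spo11, the catalytic subunit, rose from ESCs to EpiLCs, and of the 2 sorts of day 5 cells the XGFP- one had more of it. Its normalised counts were 2.25, 0.988, 0 and 0 in ESC replicates 1 to 4, a total of 3 reads, and 7.13, 10.9, 15.9 and 5.92 in EpiLCs. They were 30.8, 36.3, 19.1 and 32.2 in XGFP+ PGCLCs and 134.3, 128.02, 81.8 and 102.04 in XGFP- PGCLCs. The libraries of the 4 groups did not overlap, and the XGFP- PGCLCs were highest. The EpiLC group stood 2.69 ± 0.38 (SE) above ESCs on the log2(normalised count + 1) scale (limma-trend, adjusted p = 4.63e-06). Because the ESC level rests on 3 reads, the fitted difference depends on the added 1, and the ratio of summed reads, scaled for depth, was 12.2 in EpiLCs (exact 95% interval for counting error, 3.90 to 61.5), 36.5 in XGFP+ PGCLCs (12.2 to 179.5) and 139.7 in XGFP- PGCLCs (47.5 to 680).

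Between the PGCLC groups, Spo11 was 3.70-fold higher in XGFP- than in XGFP+ cells (95% interval 2.13 to 6.43, adjusted p = 0.000475, all 4 XGFP- libraries above all 4 XGFP+ libraries). This call was lost with a pseudocount of 0.5 (adjusted p = 0.00291) and when XGFP+ replicate 1, 3 or 4 or XGFP- replicate 1, 2 or 4 was left out (adjusted p from 0.00123 to 0.00246), while edgeR on the recovered reads gave 1.37e-05. The step from EpiLCs to XGFP+ PGCLCs, 1.53 ± 0.38 on the log2 scale, missed the threshold of 0.001 with an adjusted p of 0.00131. It passed with edgeR (0.000314), with DESeq2 (1.63e-05), with a pseudocount of 10 (9.94e-05), with quantile normalisation (0.000128), and without ESC replicate 1, 3 or 4, EpiLC replicate 3 or XGFP+ replicate 3 (0.000436 to 0.000967). Bulk levels cannot tell fewer cells with a transcript from less transcript per cell.

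Mei1, the accessory factor, was the rarest transcript in PGCLCs. Its counts were 13.47, 31.6, 7.36 and 6.79 in ESCs, 23.8, 33.6, 16.9 and 17.8 in EpiLCs, 2.72, 3.75, 0.957 and 2.69 in XGFP+ PGCLCs and 0.867, 1.02, 2.89 and 6.18 in XGFP- PGCLCs. All EpiLC libraries were above all PGCLC libraries, whereas the ESC and EpiLC libraries overlapped. The fitted level was 6.89-fold lower in XGFP+ PGCLCs than in EpiLCs (95% interval 3.36 to 14.1) and 7.24-fold lower in XGFP- PGCLCs (3.53 to 14.8), with 99 reads in all in EpiLCs and 10 and 11 in the PGCLC groups. With a mean of 10.8 over the 16 libraries, Mei1 passed the filter of 10 only through its ESC and EpiLC levels, so these differences are a description and no p-value is given for them.

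Mei4, which with REC114 forms part of the complex that licenses SPO11 on chromosome axes, had nearly the same level throughout. Its 16 counts lay between 151.4 and 251.4, with group means of 205.3 ± 43.3 (SD, n = 4) in ESCs, 182.7 ± 35.3 in EpiLCs, 187.8 ± 42.3 in XGFP+ PGCLCs and 198.4 ± 39.3 in XGFP- PGCLCs. Every pair of groups overlapped, and no comparison was called. The difference between XGFP- and XGFP+ PGCLCs was 0.08 on the log2 scale, with an interval of -0.31 to 0.48.

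Hormad1, the axis protein that recruits the break machinery, was lowest in XGFP- PGCLCs, the group in which Spo11 was highest. Its counts were 1631, 1829, 1213 and 1407 in ESCs, 1629, 1117, 1364 and 580 in EpiLCs, 702, 924, 583 and 910 in XGFP+ PGCLCs, and 21.7, 40.6, 16.4 and 55.7 in XGFP- PGCLCs. The first 3 groups overlapped, EpiLC replicate 4 lying below all XGFP+ PGCLC libraries, and the XGFP- group lay apart from every other library. From EpiLCs to XGFP- PGCLCs Hormad1 fell 35.3-fold (95% interval 22.1 to 56.6, adjusted p = 4.86e-11), and it was 24.7-fold lower in XGFP- than in XGFP+ PGCLCs (15.4 to 39.6, adjusted p = 3.36e-09). The XGFP+ PGCLCs differed from EpiLCs by -0.52 ± 0.32 (adjusted p = 0.156) and from ESCs by -0.97 ± 0.32 (adjusted p = 0.0125), neither called, although the second was called when only these 2 groups were fitted (0.000167). Of 6 naive ESC markers, 5 were also called lower in XGFP- than in XGFP+ PGCLCs, where 2040 of all 16281 genes were. Their summed count was 24247 to 31038 in XGFP- against 44545 to 51689 in XGFP+ cells. In EpiLCs, with Hormad1 at 580 to 1629, that sum was 2673 to 7018. The part of these markers in the Hormad1 difference was not tested.

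Hormad2, which is needed for the checkpoint that responds to unpaired chromosomes, did not follow its paralogue. Its 16 counts ran from 331.2 to 1014, both extremes being ESC libraries, with group means of 632 ± 289.4 in ESCs, 570 ± 78.4 in EpiLCs, 615 ± 150.4 in XGFP+ PGCLCs and 579 ± 113.2 in XGFP- PGCLCs. All 4 groups overlapped. XGFP- and XGFP+ PGCLCs differed by -0.07 on the log2 scale, with an interval of -0.60 to 0.45 (adjusted p = 0.831). Across the 16 libraries the log2 counts of the 2 paralogues had a Pearson r of 0.13, against 0.65 for Hormad2 and Mei4, a description over libraries that share groups.

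Trip13, the ATPase that removes HORMADs, was high and the least variable of the 7. Its counts were 2851, 2893, 2854 and 3247 in ESCs, 3067, 3165, 3008 and 3123 in EpiLCs, 2376, 2217, 2312 and 2445 in XGFP+ PGCLCs, and 1990, 2049, 2013 and 2008 in XGFP- PGCLCs. ESCs and EpiLCs overlapped, and both lay above the XGFP+ PGCLCs, which lay above the XGFP- PGCLCs. Trip13 fell 1.32-fold from EpiLCs to XGFP+ PGCLCs (95% interval 1.23 to 1.43, adjusted p = 9.86e-07) and 1.53-fold to XGFP- PGCLCs (1.42 to 1.65, adjusted p = 2.56e-09). The difference between the PGCLC groups, -0.21 ± 0.05 on the log2 scale, was not called (adjusted p = 0.00219) but was called by edgeR (0.000849), by DESeq2 (0.000106), with quantile normalisation (0.000166) and without ESC replicate 4 (0.000887). The list of spindle checkpoint and proliferation genes had 2 of 11 lower in XGFP- cells and 0 higher, beside 23.8% of all 16281 tested genes called in either direction. They were Mad1l1 (1534 to 1273, a spindle checkpoint protein that binds MAD2) and Cdc20 (6121 to 4864, the target of that checkpoint).

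Trip13 is the only one of the 7 with a deposited allelic ratio, the share of allele-informative reads from 129S1/SvImJ. The share was 0.501, 0.507, 0.521 and 0.506 in ESCs, 0.480, 0.489, 0.482 and 0.525 in EpiLCs, 0.509, 0.518, 0.530 and 0.462 in XGFP+ PGCLCs and 0.483, 0.514, 0.456 and 0.471 in XGFP- PGCLCs. Both alleles gave about equal shares and all groups overlapped. Exact permutation tests of the 6 pairs of groups (two-sided) gave p from 0.114 to 0.886, adjusted 0.571 to 0.886. The number of reads behind each ratio is unknown.

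Prdm9, the hotspot methyltransferase, was present at a low level in every library. Its counts were 63.98, 39.5, 34.7 and 48.6 in ESCs, 61.8, 74.2, 60.6 and 63.2 in EpiLCs, 55.3, 62.6, 48.8 and 72.5 in XGFP+ PGCLCs and 41.6, 32.5, 45.2 and 31.95 in XGFP- PGCLCs. XGFP- PGCLCs lay below all EpiLC and XGFP+ PGCLC libraries but overlapped ESCs. None of the 6 comparisons was called: the difference between EpiLCs and XGFP- PGCLCs was -0.78 ± 0.20 (adjusted p = 0.00175) and that between the PGCLC groups -0.65 ± 0.20 (adjusted p = 0.0122). The first was called by DESeq2 (0.000705) and without ESC replicate 1 (0.000909), and was -0.33 with quantile normalisation (adjusted p = 0.140).

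Counting calls at a false discovery rate below 0.001, 1 of the 7 genes differed between EpiLCs and ESCs, where 47.8% of all 16281 tested genes did. From EpiLCs to XGFP+ PGCLCs 2 of 7 were called lower and 0 higher (57.3% of all genes called), and from EpiLCs to XGFP- PGCLCs 1 higher and 3 lower (61.9%). Mei1, called lower in both through the filter, is among them, and without it 1 and 2 were lower. Against ESCs the called genes were 2 of 7 in XGFP+ PGCLCs (49.9%) and 3 of 7 in XGFP- PGCLCs (59.4%). Between XGFP- and XGFP+ PGCLCs they were Hormad1, lower, and Spo11, higher, so 2 of 7 against 23.8% of all genes. In each comparison the share of the 7 genes was near or below that of the genome, so the count says nothing particular about them. The median log2 difference over the 7 ranged from -0.62 (XGFP- PGCLCs against EpiLCs) to 0.06 (EpiLCs against ESCs), and that over all genes from -0.03 to 0.01. The comparisons against a common group share its libraries and are set side by side only.

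**Figure D2:**
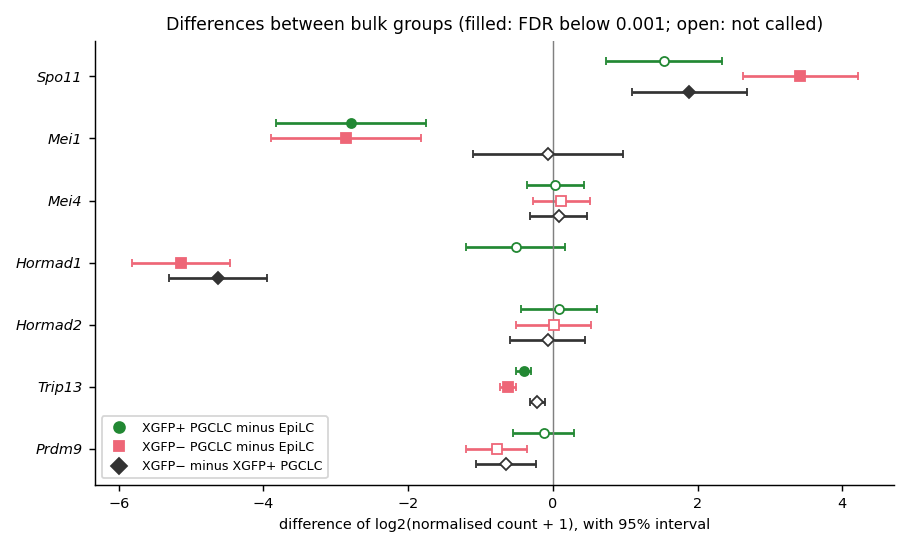
Difference of log2(normalised count + 1) for the 7 genes in 3 comparisons of the PGCLC groups and EpiLCs, with 95% intervals from the model over 16 libraries and filled symbols for a false discovery rate below 0.001. Hormad1 at -4.63 and Spo11 at 1.89 are the filled symbols for XGFP- against XGFP+ PGCLCs, on opposite sides of 0, and the intervals of Hormad2 and Mei4 include 0 in all 3 comparisons. Mei1 is drawn filled against EpiLCs but passed the filter only through its ESC and EpiLC levels, so its symbols are a description and not a test result.

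The partner genes of the pathway were read from lists of other break factors, axis and synaptonemal complex genes, strand exchange genes and meiotic entry genes. Of 9 other break genes tested, 1 was lower in XGFP- PGCLCs than in XGFP+ cells and 0 were higher, a smaller share than the 23.8% of all genes called. It was Rec114, the MEI4 partner, at 523 ± 23.9 in XGFP+ and 155.2 ± 23.6 in XGFP- cells (adjusted p = 1.20e-08). Top6bl (listed as Gm960), which pairs with SPO11 in the cutting complex, stood at 55.4 ± 6.99 and 98.95 ± 2.79 without a call (adjusted p = 0.00296), and Iho1 (listed as Ccdc36), the HORMAD1 partner, at 60.2 ± 12.2 and 34.2 ± 4.98 (adjusted p = 0.00419).

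Of 11 axis and synaptonemal complex genes, 4 were lower and 1 higher in XGFP- PGCLCs, where 2040 of all 16281 genes were lower and 1833 higher. Those lower were the synaptonemal complex components Sycp1 (20.7 to 3.80), Sycp2 (122.2 to 24.6), Sycp3 (534 to 128.9) and Syce1 (392 to 91.7), and the one higher was the meiotic cohesin Rec8 (358.8 to 614). Among 11 strand exchange and repair genes, 1 was lower, Hsf2bp (1400 to 337.3), a BRCA2-binding meiotic protein, and 0 were higher. Of 5 meiotic entry genes, Dazl (4792 to 347.6), the germ cell RNA-binding protein, and Meioc (109.9 to 36.1), which promotes meiotic prophase, were lower, and 0 were higher. Spo11 and Rec8 were thus higher in the PGCLC group in which Hormad1, Rec114 and the 4 synaptonemal complex genes were lower. Top6bl also stood higher there, without a call.

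Genes with the most similar course over the 16 libraries were taken as the top 3 by Pearson r among 11702 genes with a mean count over 100. For Hormad1 they were Aim2, Lncenc1 and Sptbn4 (each r = 0.99), and for Spo11 Inpp5f, Rgs16 and Gpld1 (each r = 0.98). For Trip13 they were Heatr1 (r = 0.99), Mtap and Utp14a (each r = 0.98), and for Mei1 Pou2f3 (r = 0.94), Epb41l4aos and Snhg12 (each r = 0.93). Likeness was weaker for Prdm9, with Lrch2 (0.86), Aass (0.82) and Ptk2b (0.80), for Hormad2, with Smc1b (0.80), Pign (0.77) and Cyp39a1 (0.74), and for Mei4, with Zdhhc21, Pign (each 0.72) and Ctdspl2 (0.71). Hormad2 was the member whose nearest gene, the cohesin subunit gene Smc1b, encodes a meiotic axis component. These values are descriptions over libraries that share 4 groups.

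In single cells of the rOvaries, the pattern by sort differed from gene to gene. Each population is 1 sample without replicates, so there is no test, and intervals are exact binomial or Poisson 95% intervals that cover counting error only. The filters left 88 XGFP+ constitutive, 125 XGFPhigh and 24 ESC cells, and 0 of 10 empty wells, and the XGFPintermediate and XGFPlow cells kept are counted as those with and those without a Spo11 read. In the empty wells 2 reads of Hormad1 fell in 1 well and the other 6 genes had 0 reads.

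Spo11 had a read in 57 XGFPintermediate cells and none in 71, a share of 44.5% (35.8 to 53.6). In XGFPlow 28 cells had a read and 93 had none, 23.1% (15.96 to 31.7). The share was 14.4% (8.76 to 21.8) in XGFPhigh and 10.2% (4.78 to 18.5) in XGFP+ constitutive cells. The intermediate interval lay above the other 3, whose neighbours overlapped. In ESCs Spo11 had a read in 0 of 24 cells, which allows a share of up to 14.2%. After each cell was thinned to 100000 reads the shares were 36.7%, 18.3%, 12.1% and 7.73% in the same order. Summed over cells and scaled to RPM, the reads of a gene per 1000000 reads on genes, Spo11 stood at 42.3 RPM in XGFPintermediate, 17.1 in XGFPhigh, 9.24 in XGFPlow and 3.09 in XGFP+ constitutive cells, so XGFPhigh, with fewer cells holding a read than XGFPlow, had the higher sum. In that sum 22.1% of the reads came from 1 cell.

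Mei1 was the rarest here as well, with a read in 17 XGFPintermediate cells (13.3%, 7.93 to 20.4) and 9 XGFPlow cells (7.44%, 3.46 to 13.6). It had a read in 1 of 88 XGFP+ constitutive cells and in 0 of 125 XGFPhigh cells, which allows a share of up to 2.91%. Its reads were concentrated, 62.5% of those in XGFPlow and 33.2% of those in XGFPintermediate coming from 1 cell each. Mei4 was found in 57.03% of XGFPintermediate (47.99 to 65.7), 35.5% of XGFPlow (27.1 to 44.8), 34.4% of XGFPhigh (26.1 to 43.4) and 18.2% of XGFP+ constitutive cells (10.8 to 27.8). In ESCs Mei4 had a read in 15 of 24 cells, 62.5% (40.6 to 81.2), at a median of only 3.25 RPM, and 40.2% after thinning, against 50.1% in XGFPintermediate cells.

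Hormad1 had a read in 99.2% of XGFPhigh (95.6 to 99.98), 93.2% of XGFP+ constitutive (85.8 to 97.5), 84.4% of XGFPintermediate (76.9 to 90.2) and 71.1% of XGFPlow cells (62.1 to 78.95). The order of the share was not the order of the level. The median per cell was 180.7 RPM in XGFPhigh, 167.6 in XGFPintermediate, 130.7 in XGFP+ constitutive, 78.6 in XGFPlow and 31.4 in ESCs, and the highest cells held 3463, 2922, 1351, 1853 and 192.4. The summed level was highest in XGFPintermediate, at 412 (408 to 417) against 323.2 (319.4 to 327.1) in XGFPhigh. These intervals count reads and leave out the spread between cells. In these sums 1 cell held 5.88% of the XGFPintermediate reads and 1 cell 7.66% of the XGFPhigh reads. XGFPintermediate thus combined cells without a read and cells with much.

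Hormad2 had a read in 77.3% to 88% of cells in the 4 rOvary populations and in 50% of ESCs. Its median was 71.7 RPM in XGFPintermediate, 48.3 in XGFPlow, 31.7 in XGFPhigh, 21.3 in XGFP+ constitutive cells and 4.48 in ESCs. The share therefore hardly separated the rOvary populations, while the level did. Trip13 went the other way, found in 100% of ESCs, 97.6% of XGFPhigh, 96.6% of XGFP+ constitutive, 84.4% of XGFPintermediate and 80.2% of XGFPlow cells, with medians of 169.8, 153.3, 151.2, 103.6 and 107.2 RPM.

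Prdm9 had a read in 39.8% of XGFPintermediate (31.3 to 48.9), 28% of XGFPhigh (20.3 to 36.7), 27.3% of XGFPlow (19.6 to 36.1) and 23.9% of XGFP+ constitutive cells (15.4 to 34.1), and in 29.2% of ESCs (12.6 to 51.1). These intervals overlapped. Its level separated the populations more, since cells with a read held a median of 80.5 RPM in XGFPintermediate, 40.1 in XGFPlow, 22.6 in XGFPhigh, 12.04 in XGFP+ constitutive cells and 9.39 in ESCs.

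**Figure D3:**
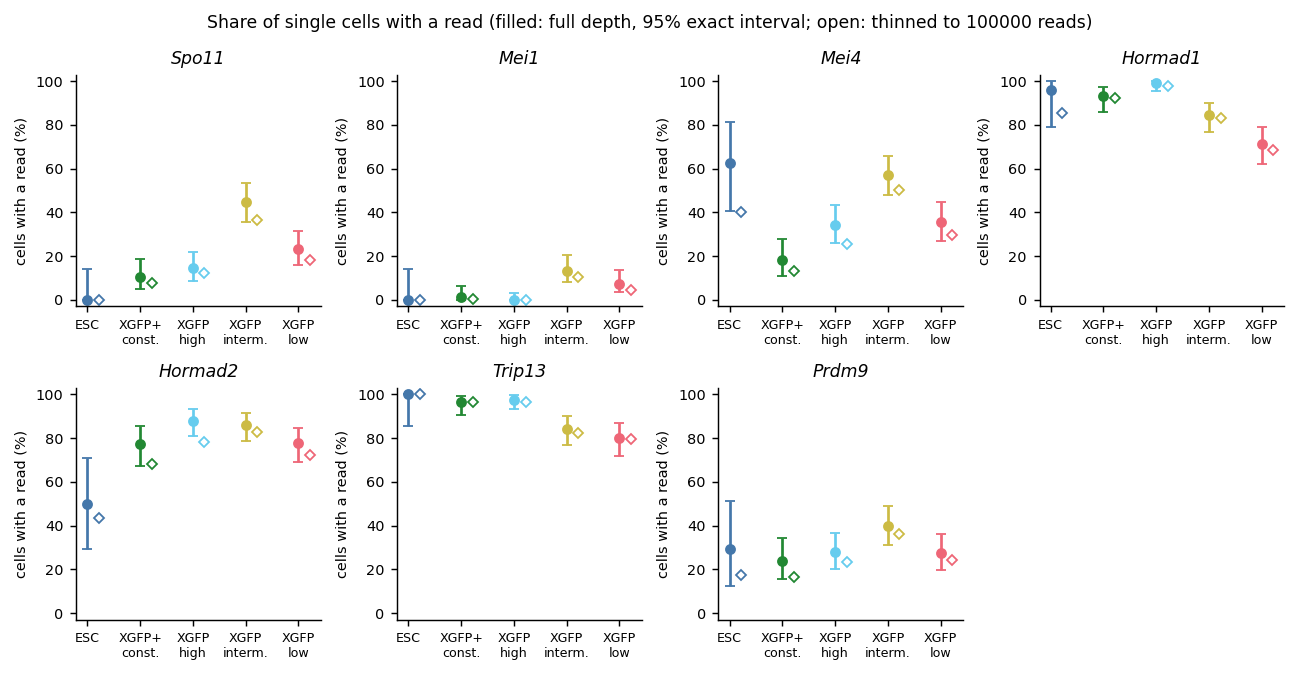
Share of single cells with at least 1 read of each gene (percent, axis from just below 0) in ESCs and the 4 rOvary populations. Filled points with exact 95% intervals are at full depth and open diamonds after thinning to 100000 reads. Spo11, Mei1, Mei4 and Prdm9 have their highest rOvary share in XGFPintermediate cells, at 44.5%, 13.3%, 57.03% and 39.8%, while Hormad1 and Trip13 have theirs in XGFPhigh cells, at 99.2% and 97.6%.

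**Figure D4:**
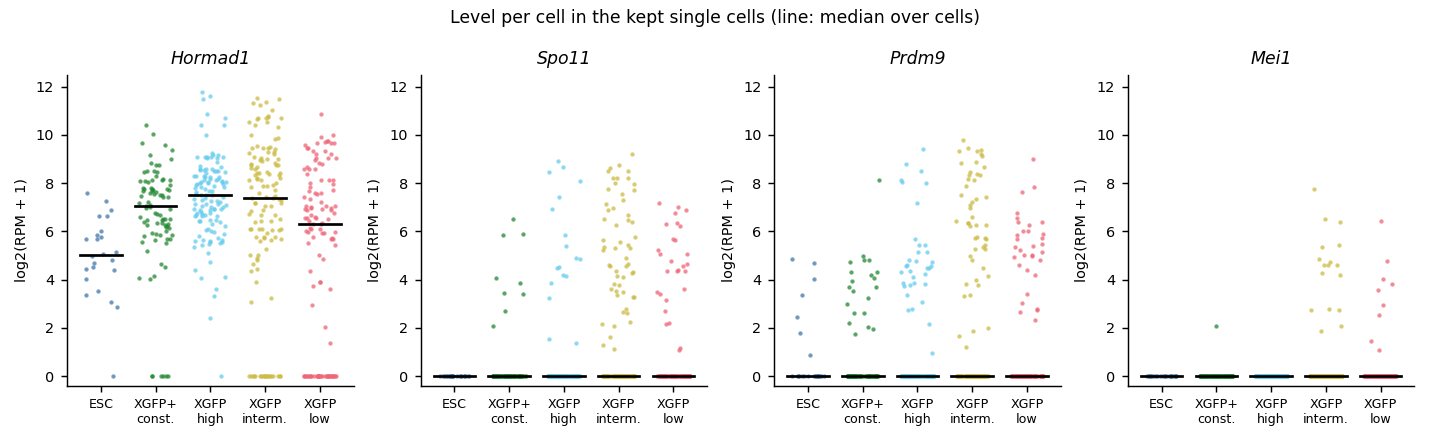
Level of Hormad1, Spo11, Prdm9 and Mei1 in each kept single cell as log2(RPM + 1), with 1 point per cell, sideways jitter for visibility and a line for the median over cells. The Hormad1 medians are 31.4 RPM in ESCs, 130.7 in XGFP+ constitutive, 180.7 in XGFPhigh, 167.6 in XGFPintermediate and 78.6 in XGFPlow cells, and the medians of Spo11, Prdm9 and Mei1 are 0.

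The XGFP+ constitutive cells were sequenced in lane 2, most cells of the other rOvary populations in lane 3 and the ESCs in lane 4. A difference between single ESCs and rOvary cells therefore cannot be told apart from the lane. Within lane 2 alone, Spo11 had a read in 8 of 16 XGFPintermediate, 3 of 15 XGFPlow, 1 of 14 XGFPhigh and 9 of 88 XGFP+ constitutive cells, the same order of the highest 2. The lead of XGFPintermediate for Mei4, Prdm9 and Mei1 was not kept in that lane. Mei4 was found in 4 of 16 XGFPintermediate and 5 of 15 XGFPlow cells, Prdm9 in 3 of 16 XGFPintermediate and 4 of 14 XGFPhigh cells, and Mei1 in 1 of 16 XGFPintermediate and 2 of 15 XGFPlow cells. Within lane 2 the Spo11 share of the XGFP+ constitutive cells (10.2%, 4.78 to 18.5) lay below that of XGFPintermediate cells (50%, 24.7 to 75.3). It was not the lowest there, since XGFPhigh stood at 7.14%, and its interval overlapped that of XGFPlow (4.33 to 48.1). After thinning to a common depth, over all lanes, it was the lowest of the rOvary populations. The sort of the XGFP+ constitutive cells cannot be told apart from their culture, which came from other PGCLCs.

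Not every sorted cell reached the Dazl level by which the study selected germ cells, and what the cells below it are was not tested. With the study's Dazl threshold, 12 XGFPintermediate and 30 XGFPlow cells stood at or under it, with a median of 1 of the 7 genes each, against 4 of 7 in the cells above it. So did 12 XGFP+ constitutive cells, with a median of 2 genes, and 7 XGFPhigh cells, with a median of 4. The rOvary cells had been gated on XTomato, the reporter of the XRep line. Somatic markers summed to over 100 RPM in 5 of the 12 XGFPintermediate, 6 of the 30 XGFPlow, 2 of the 12 XGFP+ constitutive and 0 of the 7 XGFPhigh cells. Spo11 had a read in 0 of the 30 XGFPlow cells and in 1 of the 12 XGFPintermediate cells. Restricted to cells above the threshold, Spo11 was found in 48.3% of XGFPintermediate and 30.8% of XGFPlow cells, and Hormad1 in 92.2% and 85.7%.

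The number of the 7 genes with a read in one cell had a median of 3 in XGFP+ constitutive (range 0 to 7), 4 in XGFPhigh (2 to 6), 4 in XGFPintermediate (0 to 7), 3 in XGFPlow (0 to 7) and 3.5 in ESCs (2 to 5). The medians hid a difference in the upper tail, counted at full depth and over all lanes. At least 5 of the 7 were found in 57 XGFPintermediate cells (44.5%, 35.8 to 53.6) and 28 XGFPlow cells (23.1%, 15.96 to 31.7), against 14 of 125 XGFPhigh (11.2%, 6.26 to 18.1), 5 of 88 XGFP+ constitutive (5.68%, 1.87 to 12.8) and 2 of 24 ESC wells (8.33%). All 7 were found in 4 XGFPintermediate, 4 XGFPlow, 1 XGFP+ constitutive and 0 XGFPhigh cells. Within lane 2 alone the mean number of genes per cell hardly differed. It was 3.25 in XGFPintermediate (16 cells), 3.214 in XGFPhigh (14), 3.205 in XGFP+ constitutive (88) and 3 in XGFPlow cells (15). The tail itself was not counted by lane or after thinning.

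**Figure D5:**
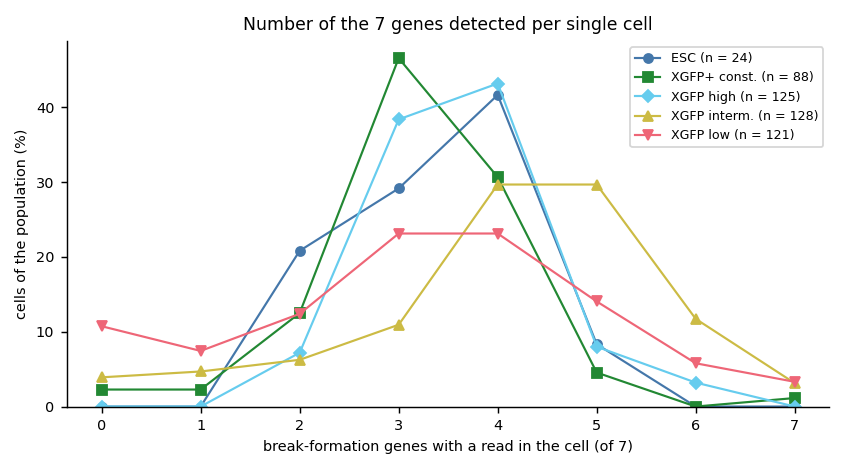
Percent of the kept cells of each population (axis from 0) by the number of the 7 genes with a read in the cell. XGFP+ constitutive and XGFPhigh cells peak at 3 and 4 genes, XGFPintermediate cells extend to 5 and more genes in 44.5% of cells, and XGFPlow cells spread from 0 to 7.

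Over the 462 kept rOvary cells, Spo11 was mostly found beside the axis genes. Of the cells with Spo11, 91.96% had Hormad1 and 9 did not, 100 had Hormad2, 94 had Trip13, 66 (58.9%) had Mei4, 52 (46.4%) had Prdm9 and 13 had Mei1. Hormad1 had a read in 86.6% of all 462 cells, so the overlap with it is wide by its prevalence alone. All 27 cells with Mei1 had both Hormad1 and Hormad2, 23 had Prdm9 and 20 had Mei4. By level, the closest pairs were Hormad1 with Hormad2 (Spearman rho 0.45) and Hormad1 with Prdm9 (0.42), and Trip13 was unrelated or weakly inverse to the rest (rho -0.15 to 0.03). These cells share cultures, lanes and depth, and the values are descriptions.

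Within XGFPintermediate, the 57 cells with Spo11 and the 71 without differed in level of other meiotic genes and also in germ cell markers. Dazl had a read in all 57 cells with Spo11 and in 61 of 71 without, and Ddx4 in all 57 and in 58 of 71. Of the 12 XGFPintermediate cells at or under the Dazl threshold, 1 had Spo11. The median was 501 against 86.1 RPM for Hormad1, 292.8 against 43.5 for Sycp1, 196.9 against 38.3 for Sycp3 and 104.7 against 29.7 for Dmc1, the meiotic strand exchange recombinase. The cohesin subunit gene Smc1b stood at 1311 against 391, and Meiosin (listed as Gm4969), a partner of STRA8 in meiotic entry, at 60.9 against 0. Rec8 was not higher in the Spo11 cells (42.02 against 67.99), nor was Trip13 (83.2 against 109.8), and Stra8 differed little (2786 against 2539). The median depth was 639800 and 647100 reads. In XGFPlow the 28 cells with Spo11 all had Dazl, against 71 of 93 without it, and their Hormad1 median was 98.03 against 64.5.

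Genes closest to each of the 7 across the 462 cells were taken by Spearman rho among 13082 genes found in at least 5% of cells. For Spo11 and for Prdm9 the same 3 genes came first, Lypd4 (rho 0.48 and 0.56), Rad21l (0.47 and 0.53), a meiotic cohesin subunit, and Rad51ap2 (0.47 and 0.53). Hormad1 was closest to Tex15 (0.60), a germ cell gene needed for meiotic recombination, then to Smc1b (0.59) and 1700123I01Rik (0.57), and Hormad2 to Ddx4, Syce1 (each 0.55) and Zcwpw1 (0.55), a reader of PRDM9 marks. Mei4 was closest to Gm4969 (0.43), Ddx4 (0.43) and Smc1b (0.43), and Mei1 to Ccnb3 (0.39), Grk4 (0.38) and Pparg (0.37). For Trip13 the 3 were Cct4 (0.47), a chaperonin subunit, and the cyclins Ccna2 (0.45) and Ccnb1 (0.44), and Trip13 also rose with the number of genes per cell (rho 0.43). These values are descriptions of these cells.

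The other break genes split by share in single cells, some being found in more XGFPintermediate than XGFP+ constitutive cells and some in fewer. The kept cells of these 2 populations held a median of 645474 and 354149 reads and 7241 and 8225.5 genes, mostly in different lanes. The shares were not thinned or split by lane, and the same count over all genes was not made. Zcwpw1 had a read in 89.1% of XGFPintermediate and 35.2% of XGFP+ constitutive cells, Gm960 in 43.8% and 14.8%, Ccdc36 in 41.4% and 15.9%, and Zcwpw2 in 34.4% and 4.55%. Atm (79.7% and 88.6%), Cxxc1 (71.1% and 82.95%) and Hells (94.5% and 98.9%) were found in fewer XGFPintermediate cells, and Ewsr1 in 100% of both. Over this list of 8 genes the median sum was 1488 RPM in XGFPintermediate, 1206 in XGFPlow, 870 in XGFP+ constitutive, 777 in XGFPhigh cells and 635 in ESCs. The axis and synaptonemal complex list of 12 genes gave 1977, 1136, 676, 641 and 252.01 in the same order. Naive ESC markers stood the other way, with median sums of 128.6 and 112.2 in XGFPintermediate and XGFPlow and 547 and 907 in XGFP+ constitutive and XGFPhigh cells. Their part in these differences was not tested.

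The X-linked allelic ratio of a cell was taken as the median 129S1/SvImJ share over its X-linked genes with a value. Of all values 38.56% were missing, and no minimum number of genes beyond any was required. A cell at 0 may thus still hold some 129S1/SvImJ reads. The ratio was set beside the presence of Spo11 in each sort. The median of this ratio over cells was 0.306 in XGFPintermediate cells with Spo11 and 0.280 in those without, and 0.222 and 0.201 in XGFPlow. It was 0.439 and 0.476 in XGFPhigh, and 0.462 and 0.476 in XGFP+ constitutive cells. Cells with and without Spo11 thus differed little, and not in one direction. Wider gaps were found in XGFPlow for Hormad1, where 69 cells with a read had a median of 0.223 and 19 without it a median of 0, and as wide for Hormad2 (72 cells at 0.222 and 16 at 0) and Trip13 (73 cells at 0.222 and 15 at 0). Of 35 XGFPlow cells without Hormad1, 15 had Dazl, against 84 of 86 with it, so these cells also differed in a germ cell marker.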

How the data were processed

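Bulk RNA-seq (stranded total RNA, 16 libraries) and plate-based full-length single-cell RNA-seq (552 wells) were analysed. Per the labels and the study's methods, the authors mapped reads with STAR to mm10 and counted genes with HTSeq 0.6.1. The strand setting of the counting is not given in the sources used here. The deposited bulk values are a normalised signal, gene counts divided by 1 size factor per library, and contain no gene with a mean under 9.59. The authors deposited whole-number counts per gene and cell without molecular identifiers, so a read is not a molecule. Allelic ratios were deposited as a fraction of 129S1/SvImJ reads, without coverage, and 4 columns of that table belong to other samples and were not used.

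All 16 bulk libraries were fitted in 1 model of group with limma-trend 3.58.1 (R 4.3.3) on log2(normalised count + 1), for 16281 genes with a mean above 10, with Benjamini-Hochberg adjustment and a threshold of 0.001. A fold change is on the scale with 1 added and understates that of low genes. On simulated XGFP- against XGFP+ data (16222 genes) the fit called 66.3% of genes changed 2-fold, 98.0% of those changed 4-fold and 0% of unchanged genes. The simulated libraries were independent and had the same dispersion for every gene. These shares hold for that setting and need not hold for the real libraries. As alternatives, edgeR 4.0.16 and DESeq2 1.42.0 took the whole reads recovered from the signal (100% of values) and called 3974 and 5051 genes between the PGCLC groups, against 3873. Same-numbered XGFP+ and XGFP- libraries deviated together (r 0.135 to 0.307), while other group pairs had at least 1 r under 0.1. Every pair of libraries of a group differed by more than counting noise, which separately prepared technical replicates would too, and none were merged.

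Promoter sequences are from RefSeq, GRCm38.p6. All 7 genes are named. Of the partner lists, genes called between the PGCLC groups, or on which a result turns, are named. The genes and lists were chosen with earlier results of these data known.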

Additional observations from a re-analysis of the deposited data

Results flagged for a closer look

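Among 32 groups of 4 libraries examined (the level of each of the 7 genes and the Trip13 allelic share in each bulk group), 1 value stood far from the rest. Trip13 in ESC replicate 4 had a normalised count of 3247, against 2851 to 2893 in the other 3 ESC libraries. Chance marks about 1 in 20 such groups. Without this library Trip13 differed between XGFP- and XGFP+ PGCLCs with an adjusted p of 0.000887 (limma-trend), against 0.00219 with it.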

How the results depend on the processing

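Hormad1 kept its call between the PGCLC groups under every alternative run, and Spo11 kept its direction in all 6 comparisons under each one that includes Spo11. With genes restricted to a mean over 100, which leaves out Spo11, Mei1 and Prdm9, 0 of the remaining genes were called between EpiLCs and ESCs, 1 between XGFP+ PGCLCs and EpiLCs, 2 between XGFP- PGCLCs and EpiLCs, 1 between XGFP+ PGCLCs and ESCs and 1 between the PGCLC groups. Of all 11702 genes tested at that setting, 6028, 7398, 7931, 6525 and 3073 were called in the same order. At a threshold of 0.05 the counts were 2, 4 and 4 of 7 for EpiLCs against ESCs, XGFP+ PGCLCs against ESCs and XGFP- against XGFP+ PGCLCs. Of all 16281 genes, 10951, 11385 and 7914 passed it in the same order. Mei1, counted through the filter, is among the 4 for XGFP+ PGCLCs against ESCs. Requiring a log2 difference over 1 left 1 called gene for XGFP+ PGCLCs against EpiLCs and 1 against ESCs, since Trip13 drops out by its size. Of all 16281 genes, this left 4947 and 4030. The gene left against EpiLCs was Mei1, called through the filter. With a pseudocount of 0.5, 1 gene was called between the PGCLC groups, beside 3812 of all 16281 genes. Leaving out single libraries gave 1 to 3, beside 3078 to 4018 of all genes. The libraries are named above for Spo11 and Trip13.

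Signs turned only in differences that were not called. With quantile normalisation these were Prdm9 in XGFP+ PGCLCs against EpiLCs (0.17), Hormad2 in XGFP- PGCLCs against EpiLCs (-0.068) and in XGFP+ PGCLCs against ESCs (-0.00080), and Mei1 between the PGCLC groups (0.52). Hormad2 in XGFP+ PGCLCs against ESCs was -0.018 with edgeR and -0.042 with DESeq2, and Mei1 between the PGCLC groups was 0.0094 with a pseudocount of 10, 0.084 with edgeR and 0.11 with DESeq2. Leaving out 1 library moved the Hormad2 difference between -0.31 and 0.22 (EpiLCs against ESCs), -0.032 and 0.19 (XGFP+ PGCLCs against EpiLCs), -0.088 and 0.12 (XGFP- PGCLCs against EpiLCs), -0.23 and 0.31 (XGFP+ PGCLCs against ESCs), -0.30 and 0.23 (XGFP- PGCLCs against ESCs), and -0.18 and 0.043 (XGFP- against XGFP+ PGCLCs). The Mei4 difference moved between -0.11 and 0.16 (XGFP+ PGCLCs against EpiLCs), -0.18 and 0.060 (XGFP- PGCLCs against ESCs) and -0.016 and 0.23 (between the PGCLC groups), and that of Mei1 between the PGCLC groups from -0.46 to 0.19. The cause was not tested. The replicate number as a block changed no call of the 7 genes, and gave 4170 called genes in all between the PGCLC groups against 3873 without it.

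The Trip13 allelic share in XGFP+ PGCLCs against ESCs, -0.00428 as a difference of means, was 0.00669 as a difference of medians and lay between -0.0127 and 0.00993 without single libraries.

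In single cells, the median number of the 7 genes per cell fell with depth by construction. It was 2 in XGFP+ constitutive cells when 10 reads were required. Thinned to 100000 reads it was 2.98 in XGFP+ constitutive, 3.115 in XGFPhigh (4 at full depth), 3.97 in XGFPintermediate, 3.00 in XGFPlow cells and 2.92 in ESCs, and thinned to 50000 reads it was 2.77, 3.69 and 2.93 in these rOvary populations, 2.94 in XGFPhigh cells and 2.42 in ESCs. Within lane 2 it was 3.5 in XGFPintermediate cells.

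The ESC level of Spo11 and the PGCLC levels of Mei1 rest on 3 to 11 summed reads, and the single-cell populations on 1 sample each.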
